A study of Mus musculus with 6 samples.

Results

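Levels of 10 aldehyde dehydrogenase genes, of the 54146 genes counted, were followed through whole kidneys of 12-week-old mice. They comprise the Aldh1a genes Aldh1a1, Aldh1a2, Aldh1a3 and Aldh1a7, and the genes Aldh1b1, Aldh1l1, Aldh2, Aldh3a2, Aldh4a1 and Aldh6a1, each found once by its symbol in all 6 count tables. The genes were picked with the difference between the labelled groups already known, so that difference is described below without p-values, and counts of members past the threshold are a description only. All animals were of strain B6C3F1/J at postnatal day 84 and carried the floxed Tfam allele, labelled f/f. Of the 6 libraries, 3 are labelled Tfam f/f, without Cre, and 3 are labelled KspCre Tfam f/f. Ksp is the promoter of kidney-specific cadherin, which is active in tubule epithelium, so cells outside it are not targeted, and Tfam encodes the factor that packages and transcribes mitochondrial DNA.

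Tfam, the targeted gene, was measured first as a check of the labels. Its normalised level, in CPM (counts scaled to a common library size, with TMM factors), was 30.3, 33.6 and 23.2 in replicates 1, 2 and 3 labelled Tfam f/f, against 63.1, 63.5 and 61.4 under the KspCre Tfam f/f label. The libraries labelled as carrying Cre thus held 2.15-fold more Tfam mRNA (log2 fold change 1.11, SE 0.14, edgeR quasi-likelihood adjusted p = 0.00107), which goes against the label. The names of the deposited tables also mark the libraries labelled KspCre Tfam f/f as WT. Whether the labels were exchanged cannot be told apart from a true difference here, so every direction below is a direction between labels. Libraries held 19024208 to 48899266 gene counts, and 17308 genes had enough counts to be tested. Summed CPM of 11 proximal tubule markers ran from 3536 to 15389 under the Tfam f/f label and from 46365 to 48624 under the KspCre Tfam f/f label, with 9 of the 11 called higher in the latter and 0 lower. For 5 transcripts of injured tubules the sums were 356 to 2038 and 14.6 to 16.4, and all 5 were called lower. Of 8 macrophage markers 7 were called lower, with sums of 160 to 493 and 126 to 138. The part of these differences in the results below was not tested, and in whole kidney fewer cells of a type and less RNA per cell cannot be told apart.

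Aldehyde dehydrogenases oxidise aldehydes to carboxylic acids with NAD or NADP as the acceptor. Aldh1a1, Aldh1a2 and Aldh1a3 carry out the irreversible last step of retinoic acid synthesis, from retinaldehyde, and Aldh1a7 is a rodent relative of Aldh1a1. Retinoic acid binds nuclear receptors of the Rar and Rxr families and is cleared by Cyp26 enzymes; in the developing kidney it is known for its role in growth of the collecting system. The other members act in folate, acetaldehyde, fatty aldehyde, proline and valine metabolism, much of it in mitochondria.

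The sequences of Aldh1a1 and Aldh1a7 are shown because these neighbours are close copies that nevertheless differed in level. On mm10, Aldh1a1 lies at chr19:20492715-20643465 on the plus strand and Aldh1a7 at chr19:20692953-20727562 on the minus strand, with 49487 bases between them. In the 110 bases that end close to a transcription start of each gene, 104 were identical (94.55%). The lines below give these bases 5′ to 3′ from RefSeq on GRCm38.p6, at chr19:20601858-20601967 (plus strand, the second RefSeq start of Aldh1a1) and chr19:20727557-20727666 (minus strand), with capitals for the 6 bases that differ.
Aldh1a1: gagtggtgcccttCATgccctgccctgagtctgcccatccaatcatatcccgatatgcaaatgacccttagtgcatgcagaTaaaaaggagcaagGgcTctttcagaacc
Aldh1a7: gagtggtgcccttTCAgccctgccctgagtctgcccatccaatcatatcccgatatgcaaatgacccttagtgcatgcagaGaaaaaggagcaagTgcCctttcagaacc
The same length before the first RefSeq start of Aldh1a1 was 29.1% identical to Aldh1a7, so the likeness belongs to the second start. The coding sequences, taken from GENCODE M21 transcripts, were 91.6% identical over 1503 bases. Their most alike stretch holds an identical run of 100 bases and bears on read assignment; coding bases 742 to 871 are given here, with capitals for the 3 differences.
Aldh1a1: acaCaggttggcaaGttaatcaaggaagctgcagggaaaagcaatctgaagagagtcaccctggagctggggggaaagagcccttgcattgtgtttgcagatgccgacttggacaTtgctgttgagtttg
Aldh1a7: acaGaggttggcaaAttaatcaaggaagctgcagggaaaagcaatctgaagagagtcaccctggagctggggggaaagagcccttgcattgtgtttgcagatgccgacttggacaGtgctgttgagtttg
The full protein-coding transcripts of the 2 genes, untranslated ends included, shared 0 stretches of 150 bases, the length of a read. Reads that aligned to several places were left uncounted, so a loss of reads in either gene cannot be told from these counts, and the 2 genes are reported as uncertain to that extent. The next most alike pairs among the members, Aldh1l2 and Aldh18a1 were far lower: Aldh1l1 and Aldh1l2 shared 72.0%, Aldh1b1 and Aldh2 70.2%, and Aldh1a2 and Aldh1a3 69.9% of aligned coding bases.

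Of the Aldh1a genes, Aldh1a1, Aldh1a2 and Aldh1a7 were each lower in all 3 libraries labelled KspCre Tfam f/f than in any library labelled Tfam f/f. Aldh1a1 (ENSMUSG00000053279.7), the cytosolic retinaldehyde dehydrogenase, measured 59.4, 40.5 and 29.8 CPM in replicates 1, 2 and 3 labelled Tfam f/f, against 6.74, 6.21 and 6.94 CPM under the KspCre Tfam f/f label. The first group was spread widely, with replicate 1 highest, and the second lay tightly together well below it. The means were 43.2 ± 15 and 6.63 ± 0.380 CPM (SD, n = 3 each), a 6.53-fold lower level with the KspCre label (log2 -2.71, SE 0.25).

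Aldh1a2 (ENSMUSG00000013584.5, chr9:71215789-71296243), the enzyme that makes most retinoic acid in the embryo, measured 11.7, 11.3 and 13.0 CPM against 3.05, 2.03 and 2.37 CPM. It was the one member in which replicate 3 labelled Tfam f/f stood highest in its group, and the groups were far apart. Means of 12.0 ± 0.868 and 2.48 ± 0.522 CPM (SD, n = 3 each) gave a 4.81-fold lower level (log2 -2.27, SE 0.19).

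Aldh1a7 (ENSMUSG00000024747.3) measured 33.8, 33.8 and 16.2 CPM under the Tfam f/f label and 10.3, 12.3 and 11.8 CPM under the other. Replicate 3 labelled Tfam f/f came nearest to the other group, without overlap. The means, 27.9 ± 10.2 and 11.5 ± 1.05 CPM (SD, n = 3 each), differed 2.44-fold (log2 -1.29, SE 0.27). Within each library the ratio of Aldh1a1 to Aldh1a7, each per kilobase of exon, was 0.735, 0.502 and 0.770 under the Tfam f/f label and 0.274, 0.211 and 0.246 under the other. The close copies thus differed unequally, by 2.74-fold in their ratio, a fold that does not depend on the lengths used.

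Aldh1a3 (ENSMUSG00000015134.15, chr7:66390890-66427517), a retinaldehyde dehydrogenase known from the eye and nasal region, did not follow the other Aldh1a genes. It measured 1.18, 5.08 and 0.50 CPM with the Tfam f/f label and 1.2, 0.92 and 9.54 CPM with the KspCre Tfam f/f label, from 12 to 250 reads a library. One library of each group stood far above its fellows, replicate 2 labelled Tfam f/f and replicate 3 labelled KspCre Tfam f/f, and the groups overlapped. The fitted 1.63-fold higher level (log2 0.70, SE 1.06) became 4.45-fold higher without the former library and 2.16-fold lower without the latter. Marker lists of other cell types moved with these libraries in part. Summed adipocyte markers (Adipoq, Plin1 and Cfd) were 9.29, 63.2 and 11.9 CPM with the Tfam f/f label and 1.53, 0.145 and 8.62 CPM with the other. Within each group they were highest in the same library as Aldh1a3, but 8.62 CPM lay below every library labelled Tfam f/f. Summed mesothelial markers, at 6.83, 6.93 and 3.23 CPM against 2.77, 2.61 and 5.72 CPM, were also highest of each group in those libraries. Replicates 1 and 2 of the first group were nearly level, and both lay above 5.72 CPM. Summed tubule markers of the thick ascending limb (Umod, Slc12a1, Cldn16 and Ptger3) were highest in the same libraries too. They stood at 3046, 3724 and 2638 CPM against 7027, 6873 and 7077 CPM, nearly level in the second group. No further marker list was highest in both libraries. A list of 6 urothelial genes made after the data had been seen (Upk1a, Upk1b, Upk2, Upk3a, Krt5 and Trp63) summed to 3.75, 3.66 and 3.27 CPM and to 15.7, 10.1 and 14.4 CPM, highest in neither library. Singly, Upk1b, Upk2, Upk3a and Krt5 were highest of their group in replicate 2 labelled Tfam f/f, and Upk1a and Upk2 in replicate 3 labelled KspCre Tfam f/f. The former rested on 0 to 23 reads a library with the Tfam f/f label, and Upk2 on 2, 3 and 0, near the floor. With that label Upk1a and Trp63 were highest in replicate 1, as were Upk1b, Upk3a, Krt5 and Trp63 with the other. The part of these cell types in the level of Aldh1a3 was not tested.

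**Figure D1:**
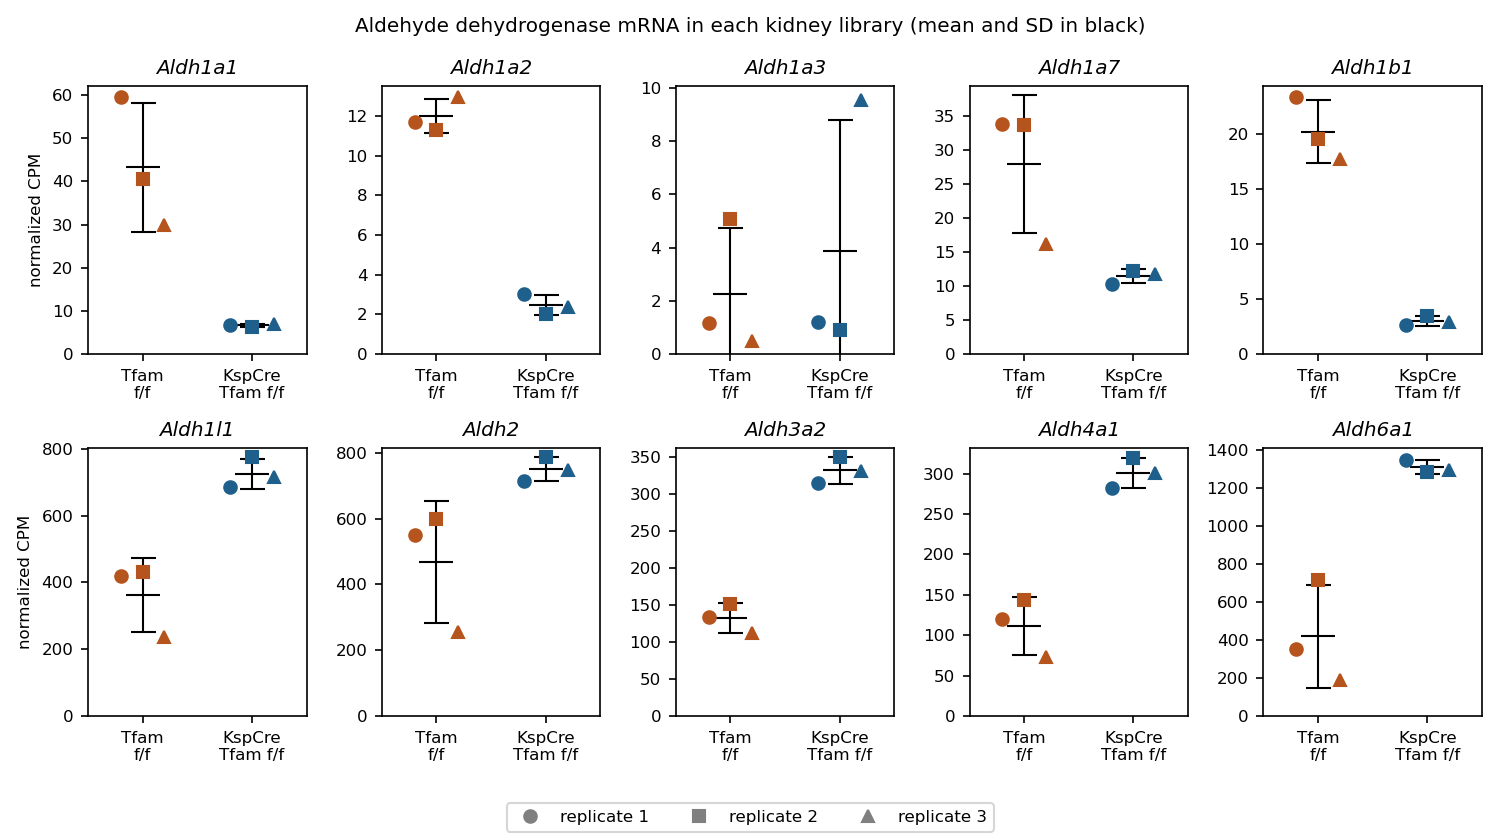
Normalised level (CPM, linear axis from 0) of the 10 members in each library, with points for libraries, shapes for replicate numbers, and black bars for the mean and SD of 3 libraries (cut at 0 for Aldh1a3). Aldh1a1, Aldh1a2, Aldh1a7 and Aldh1b1 lie lower, and Aldh1l1, Aldh2, Aldh3a2, Aldh4a1 and Aldh6a1 higher, in every library labelled KspCre Tfam f/f; Aldh1a3 overlaps.

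Aldh1b1 was the exception among the 6 remaining members, being lower with the KspCre label. Aldh1b1 (ENSMUSG00000035561.5, chr4:45799022-45804604), a mitochondrial relative of Aldh2, measured 23.3, 19.5 and 17.7 CPM against 2.63, 3.48 and 2.90 CPM. All 3 libraries of the first group stood several-fold above the second. Means of 20.2 ± 2.84 and 3.0 ± 0.434 CPM (SD, n = 3 each) gave a 6.70-fold lower level (log2 -2.74, SE 0.17), close in size to that of Aldh1a1.

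Aldh2 (ENSMUSG00000029455.14, chr5:121566027-121593824), the mitochondrial enzyme that clears acetaldehyde, measured 551, 598 and 257 CPM with the Tfam f/f label and 715, 788 and 748 CPM with the KspCre Tfam f/f label. Every library of the second group was above the first, and replicate 3 of the first was less abundant than its fellows. The means were 469 ± 185 and 750 ± 36.5 CPM (SD, n = 3 each), 1.60-fold higher (log2 0.68, SE 0.31). Since Aldh1b1 and Aldh2 differed in opposite directions, their ratio per kilobase was 0.0942, 0.0727 and 0.154 under the Tfam f/f label and 0.00821, 0.00985 and 0.00864 under the other. That ratio was 12.0-fold lower on average with the KspCre label, with no overlap of the groups.

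Aldh3a2 (ENSMUSG00000010025.19, chr11:61223417-61267464), the fatty aldehyde dehydrogenase whose loss causes Sjögren-Larsson syndrome, measured 133, 152 and 112 CPM against 315, 350 and 331 CPM. Both groups were compact and did not overlap. The means of 132 ± 19.9 and 332 ± 17.8 CPM (SD, n = 3 each) differed 2.51-fold (log2 1.33, SE 0.15), the smallest SE among the members.

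Aldh1l1 (ENSMUSG00000030088.15, chr6:90486427-90600203), the cytosolic formyltetrahydrofolate dehydrogenase, measured 419, 432 and 236 CPM against 686, 775 and 714 CPM. Replicate 3 labelled Tfam f/f was again lowest and the groups did not overlap. The level was 2.00-fold higher with the KspCre label, at 725 ± 45.4 against 362 ± 110 CPM (SD, n = 3 each; log2 1.0, SE 0.25). An antisense gene, Gm15756, covers 11.05% of its exon bases on the opposite strand, and as the strand setting of the counting is not given in the sources used here, reads there are uncertain.

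Aldh4a1 (ENSMUSG00000028737.15, chr4:139622866-139649690), which turns glutamate semialdehyde from proline into glutamate in mitochondria, measured 120, 143 and 73.0 CPM against 282, 319 and 301 CPM. The lowest library with the KspCre label held nearly as much again as the highest with the other label. The means of 112 ± 35.7 and 301 ± 18.4 CPM (SD, n = 3 each) differed 2.69-fold (log2 1.43, SE 0.24). A second gene model on the same strand, Gm21969, covers 32.5% of the exon bases of Aldh4a1, so its counts are uncertain and may be too low.

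Aldh6a1 (ENSMUSG00000021238.11, chr12:84430717-84451004), the methylmalonate semialdehyde dehydrogenase of valine and thymine breakdown, measured 355, 716 and 188 CPM against 1349, 1283 and 1293 CPM. Its libraries labelled Tfam f/f differed most from each other among the members other than Aldh1a3, with replicate 2 highest, and all lay below the other group. The level was 3.12-fold higher at 1308 ± 35.3 against 419 ± 270 CPM (SD, n = 3 each; log2 1.64, SE 0.44), and 4.88-fold higher without replicate 2 labelled Tfam f/f. Bbof1, on the opposite strand, covers 18.6% of its exon bases.

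Counted together, 4 members were called higher at an adjusted p below 0.05 (Aldh1l1, Aldh3a2, Aldh4a1 and Aldh6a1), beside 21.3% of all tested genes. Another 4 were called lower (Aldh1a1, Aldh1a2, Aldh1a7 and Aldh1b1), beside 24.9% of all genes (46.2% in either direction), and Aldh1a3 and Aldh2 were not called. The 4 called higher became 2 to 5 when 1 library was left out: Aldh6a1 was no longer called without replicate 1 labelled Tfam f/f or without any single library of the KspCre label, nor was Aldh1l1 without replicate 2 labelled KspCre Tfam f/f. Scaling by total counts alone moved the median log2 fold change of all genes by -0.43 and their split to 1680 higher and 8519 lower, from 3690 and 4310, while the members' calls were again 4 and 4. Groups without overlap were seen for 5 members higher and 4 lower, beside 29.8% and 32.1% of all genes (61.9% in either direction). These counts describe genes picked on the same contrast and are read no further. Median log2 fold changes were -1.78 for the 4 Aldh1a genes, 1.16 for the other 6 and -0.03 over all tested genes. The difference of the class medians, -2.94, does not describe every gene, since Aldh1b1 was lower and Aldh1a3 overlapped.

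Levels were compared between genes as RPKM, CPM divided by the exon length in kilobases. In libraries labelled Tfam f/f the most abundant members were Aldh2 (91.5 ± 36.2 RPKM), Aldh1l1 (80.2 ± 24.3) and Aldh6a1 (72.5 ± 46.7), whose ranges overlapped in that order. Aldh3a2 (23.6 ± 3.54) and Aldh4a1 (22.8 ± 7.28) followed, and then Aldh1a7 (13.5 ± 4.92), Aldh1b1 (8.77 ± 1.24), Aldh1a1 (8.76 ± 3.04), Aldh1a2 (5.30 ± 0.383) and Aldh1a3 (0.488 ± 0.536; all SD, n = 3). Neighbours in this order were separated without overlap only between Aldh6a1 and Aldh3a2, Aldh1a1 and Aldh1a2, and Aldh1a2 and Aldh1a3.

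With the KspCre Tfam f/f label Aldh6a1 was first at 226 ± 6.10 RPKM, above Aldh1l1 (161 ± 10.1) and Aldh2 (146 ± 7.13), which overlapped. Aldh4a1 (61.3 ± 3.74) and Aldh3a2 (59.0 ± 3.17) overlapped each other and lay apart from the genes on either side. Aldh1a7, at 5.55 ± 0.506 RPKM, was the most abundant Aldh1a gene and did not overlap Aldh1a1 (1.34 ± 0.0769). Below it Aldh1a1, Aldh1b1 (1.31 ± 0.189), Aldh1a2 (1.1 ± 0.230) and Aldh1a3 (0.841 ± 1.06; all SD, n = 3) could not be ordered beyond their spread. Exon lengths are those of GENCODE M21, where Aldh1a1 carries a later version of its identifier than in the deposited tables, unlike the other 9 members. With the longest transcript as its length, Aldh1a1 came to 18.3 and 2.81 RPKM in the respective groups, so its place in these orders depends on the gene model. The lengths of other members depend on it too. Summed exons and longest transcript were 5619 and 3091 bases for Aldh3a2, 5784 and 3471 for Aldh6a1, and 5126 and 3867 for Aldh2. The order of the abundant members, and the RPKM sums and shares that follow, thus also depend on the lengths used.

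Summed over the 4 Aldh1a genes, the level was 33.8, 30.6 and 19.7 RPKM under the Tfam f/f label and 7.95, 8.30 and 10.2 RPKM under the other. Of the mean Aldh1a sums, 28.1 and 8.83 RPKM, Aldh1a7 gave 13.5 and 5.55 RPKM. That gene is named above only as a relative of Aldh1a1, so these sums are not sums of retinaldehyde enzymes alone. The 6 members outside the Aldh1a genes together gave 320, 401 and 177 RPKM against 639, 676 and 649 RPKM. Both sums separated the groups, in opposite directions: the Aldh1a sum was 3.18-fold lower and the other sum 2.19-fold higher with the KspCre label. Aldh1a mRNA thus made up 9.56, 7.10 and 10.01% of the RPKM of the 10 members with the Tfam f/f label and 1.23, 1.21 and 1.55% with the KspCre Tfam f/f label.

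**Figure D2:**
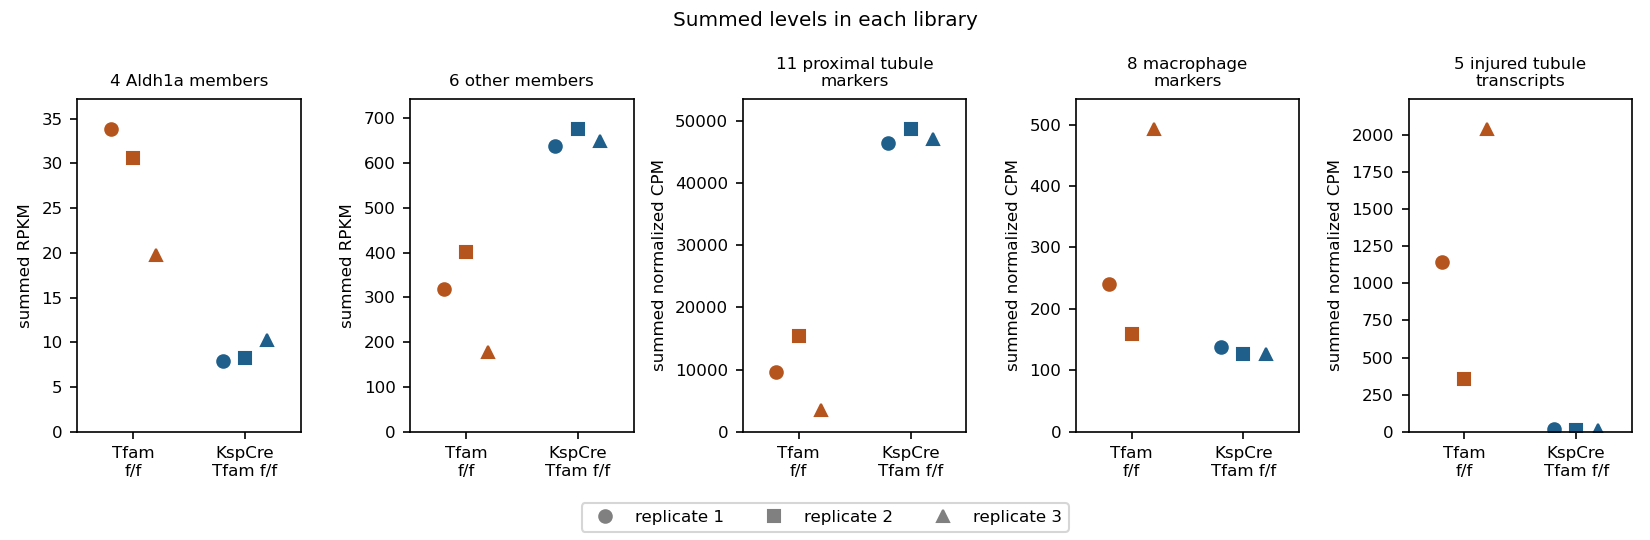
Summed level per library of the 4 Aldh1a genes and the 6 other members (RPKM) and of 3 marker lists (CPM), each on a linear axis from 0, with shapes for replicate numbers. The Aldh1a sum is lower and the other sum higher in libraries labelled KspCre Tfam f/f, where the proximal tubule sum is also higher and the macrophage and injury sums lower.

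Of the 10 members, 7 varied more among the libraries labelled Tfam f/f than among the others, the exceptions being Aldh1a2, Aldh1a3 and Aldh1b1. Between the highest and lowest library of the former, Aldh6a1 differed 3.81-fold, Aldh2 2.33-fold, Aldh1a7 2.09-fold, Aldh1a1 1.99-fold, Aldh4a1 1.96-fold and Aldh1l1 1.83-fold, but Aldh3a2 1.36-fold, Aldh1b1 1.31-fold and Aldh1a2 1.15-fold. In the latter the same ratio was 1.05 to 1.5 for every member but Aldh1a3. In CPM with TMM factors, replicate 3 labelled Tfam f/f was the lowest of its group for 9 of 10 members, Aldh1a2 being the exception. Its TMM factor was the largest, 1.25 against 1.14 and 1.09 for replicates 1 and 2, so this count depends on the scaling. The margin was smallest for Aldh1b1, at 19.5 CPM in replicate 2 and 17.7 CPM in replicate 3. The share of all genes lowest in replicate 3 was not measured. Replicate 3 also had the lowest proximal tubule sum (3536 CPM) and the highest macrophage (493 CPM) and injury (2038 CPM) sums. Replicate 2, with the highest proximal tubule sum of its group, was highest for Aldh1a3, Aldh1l1, Aldh2, Aldh3a2, Aldh4a1 and Aldh6a1. Of the 4 members called lower, Aldh1a1, Aldh1a7 and Aldh1b1 were thus lowest of this group in the library with the most injury RNA. Aldh1a2 was highest there, at 13.0 CPM against 11.7 and 11.3 CPM in replicates 1 and 2. The part of these markers in the members' values was not tested.

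The rest of the family was read from 11 further aldehyde dehydrogenase genes, the complement of the members and so not an independent list. Of these 10 had enough counts, of which 7 were called higher and 2 lower by edgeR's quasi-likelihood test with Benjamini-Hochberg adjustment. These are 70% and 20%, beside 21.3% and 24.9% of all tested genes. Aldh1l2, the mitochondrial counterpart of Aldh1l1, measured 41.1, 56.7 and 39.7 CPM against 4.60, 5.53 and 3.43 CPM. It fell 10.1-fold (log2 -3.33, SE 0.22, adjusted p = 8.83e-05), opposite in direction to Aldh1l1. Aldh18a1, which makes the glutamate semialdehyde that Aldh4a1 uses up, measured 59.7, 52.0 and 65.0 CPM against 4.11, 3.43 and 3.66 CPM. This 15.7-fold fall (log2 -3.98, SE 0.13, adjusted p = 5.77e-06) was opposite to Aldh4a1.

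Taken per kilobase within a library, Aldh1l2 to Aldh1l1 stood at 0.0591, 0.0790 and 0.101 with the Tfam f/f label and at 0.00404, 0.00430 and 0.00289 with the KspCre Tfam f/f label, a 21.3-fold difference of means. Aldh18a1 to Aldh4a1 stood at 0.602, 0.437 and 1.07 against 0.0175, 0.0130 and 0.0146, a 46.8-fold difference. For both pairs, as for Aldh1b1 and Aldh2, the lowest ratio of one group was above the highest of the other.

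**Figure D3:**
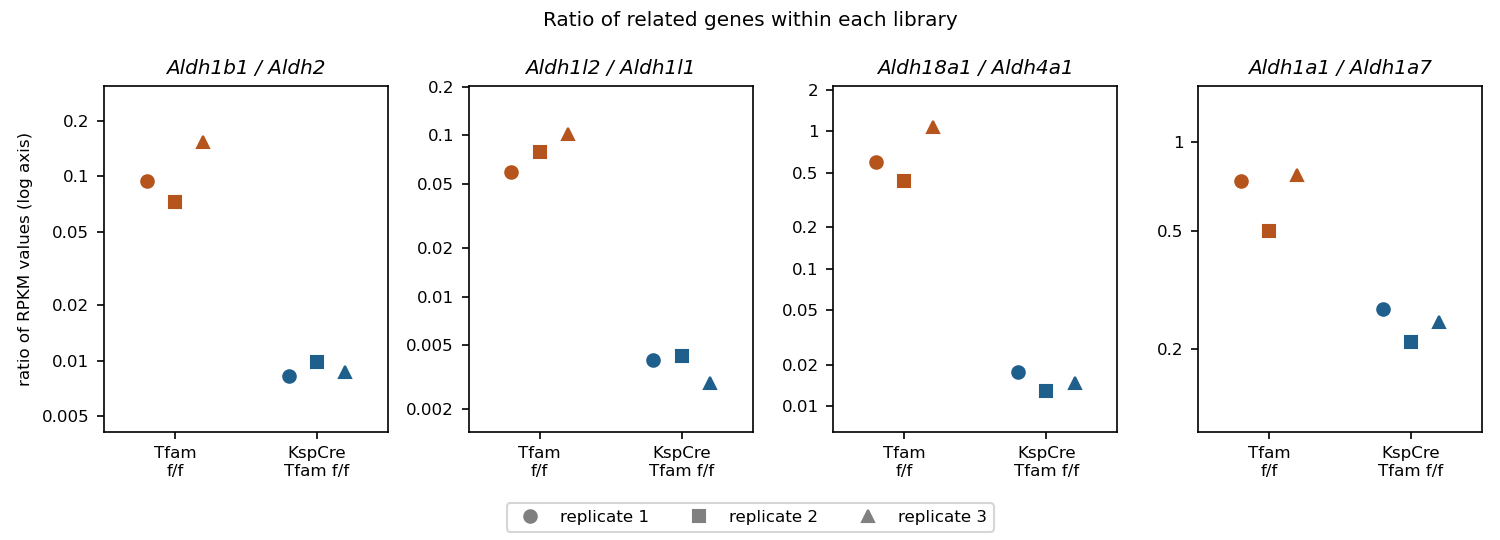
Ratio of RPKM values of 4 gene pairs within each library (log axis), with shapes for replicate numbers. In all 4 panels every library labelled KspCre Tfam f/f lies below every library labelled Tfam f/f.

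Genes of this rest that rose included Aldh8a1 of tryptophan breakdown (3.28-fold, adjusted p = 0.00700), Aldh3b3 (4.46-fold, 0.00669) and Aldh5a1, the succinate semialdehyde dehydrogenase (2.00-fold, 0.0105). Aldh9a1, which oxidises aminoaldehydes, rose 2.35-fold (adjusted p = 0.0148), and Aldh16a1 1.43-fold (0.0170). Aldh7a1 of lysine breakdown rose 2.11-fold (0.0327) and Aldh3b2 2.15-fold (0.0215). The calls of Aldh7a1 and Aldh3b2 were lost without replicate 1 labelled Tfam f/f, and without any single library of the KspCre label (adjusted p up to 0.0932 and 0.0866), as well as under scaling by total counts (0.0688 and 0.0992), and that of Aldh7a1 with no filter on low counts (0.0817). That of Aldh9a1 was lost without replicate 1 labelled Tfam f/f (0.0531), and that of Aldh16a1 without replicate 2 or 3 labelled KspCre Tfam f/f (up to 0.0650) and under scaling by total counts (0.500, log2 0.093). Aldh3b1 was not called (1.22-fold lower, adjusted p = 0.101), except without replicate 3 labelled Tfam f/f (0.0367) and under scaling by total counts (0.00317), and Aldh3a1, at 0 to 11 reads a library, was not tested.

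**Figure D4:**
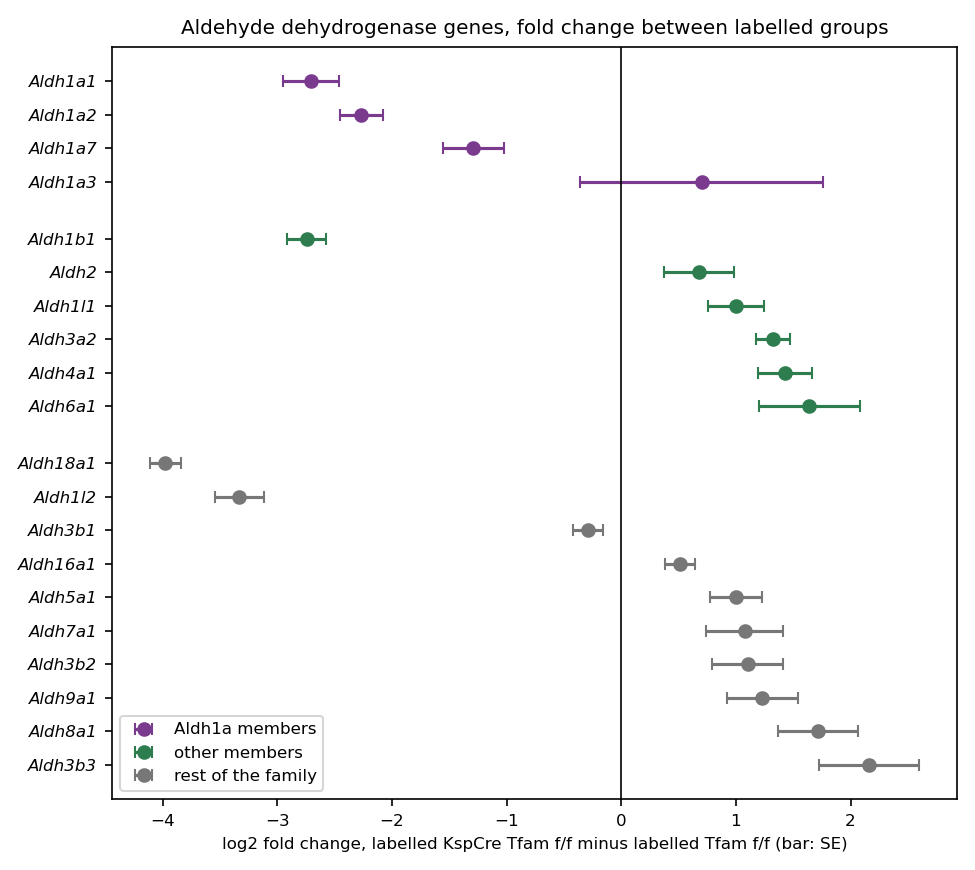
Log2 fold change between the labelled groups (x axis, bars are the SE) of the 10 members and of 10 tested genes of the rest of the family. Aldh1a1, Aldh1a2, Aldh1a7, Aldh1b1, Aldh18a1 and Aldh1l2 lie well left of 0, and Aldh1a3 has an SE wider than its distance from 0.

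Around the Aldh1a step, 44 genes of retinoid metabolism and signalling were examined and 33 tested, with 9 called higher (27.3%) and 8 lower (24.2%), shares near those of all genes. Upstream, 17 tested enzymes that interconvert retinol and retinaldehyde or cleave carotenes held 6 higher and 5 lower (35.3% and 29.4%, beside 21.3% and 24.9% of all tested genes). Adh7, a retinol-oxidising alcohol dehydrogenase, fell 7.83-fold (3.56 ± 0.725 to 0.439 ± 0.152 CPM, adjusted p = 0.000617), and Rdh12, a retinaldehyde reductase, 6.12-fold (0.00107). Adh1, the abundant alcohol dehydrogenase, rose 2.5-fold (211 ± 30.6 to 528 ± 48.0 CPM, adjusted p = 0.00117), while Rdh11 fell 1.72-fold (0.00157).

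Of 6 tested genes of retinol transport and storage, 1 was called higher and 2 lower (16.7% and 33.3%, beside 21.3% and 24.9% of all tested genes). Stra6, the cell-surface receptor for retinol-binding protein, measured 7.12, 9.25 and 28.8 CPM against 1.15, 1.62 and 1.76 CPM, a 10.01-fold fall (adjusted p = 0.00379) that was 5.51-fold without replicate 3 labelled Tfam f/f (0.000247). Ttr, the plasma carrier of retinol-binding protein, rose 3.07-fold (adjusted p = 0.0337). Its call was lost without replicate 1 labelled Tfam f/f, and without any single library of the KspCre label (adjusted p up to 0.0998), with no filter on low counts (0.173) and under scaling by total counts (0.0503).

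Downstream, Rarg fell 1.72-fold (27.1 ± 1.92 to 15.8 ± 1.94 CPM, adjusted p = 0.00248) and Rxra rose 1.87-fold (86.4 ± 22.1 to 162 ± 8.46 CPM, 0.00688). The receptor genes Rara (26.6 ± 2.25 and 24.9 ± 3.36 CPM), Rarb (8.65 ± 1.32 and 8.23 ± 1.67 CPM) and Rxrb (46.7 ± 2.02 and 45.2 ± 1.22 CPM) overlapped between groups and were not called (adjusted p = 0.570, 0.763 and 0.653), and Rxrg was too low to test. Under scaling by total counts Rara (log2 -0.53, adjusted p = 0.0179) and Rxrb (-0.47, 0.00329) were called lower. Among 10 tested genes known to respond to retinoic acid, 2 were called lower, Stra6 among them, and 1 higher, Tgm2, a transglutaminase. These are 20% and 10%, beside 24.9% and 21.3% of all tested genes. Tgm2 rose 1.32-fold (adjusted p = 0.0225), a call lost without replicate 1 labelled Tfam f/f, and without any single library of the KspCre label (up to 0.0957), and its log2 fold change was -0.03 under scaling by total counts. The clearing enzymes Cyp26a1 and Cyp26b1, named after their values were seen, were not called, at 0.268 ± 0.139 and 0.404 ± 0.0849 CPM and at 2.19 ± 0.915 and 4.61 ± 2.83 CPM (SD, n = 3 each; adjusted p = 0.292 and 0.153).

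**Figure D5:**
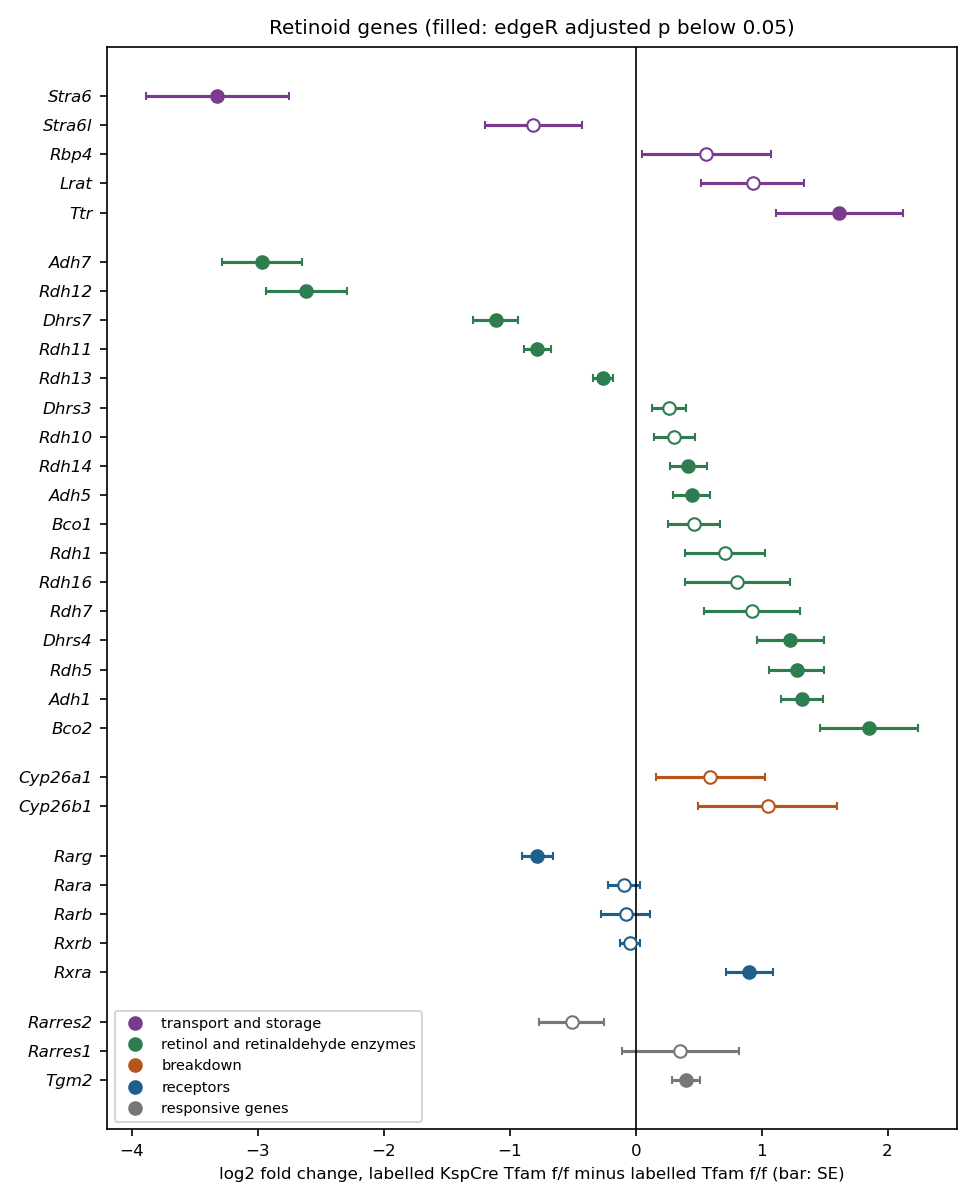
Log2 fold change between the labelled groups (x axis, bars are the SE) of tested retinoid genes by role, filled where the edgeR adjusted p is below 0.05. Filled points lie on both sides of 0 among the transport genes, the retinol enzymes and the receptors.

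Enzymes next to the other members were read in 34 tested genes, of which 19 were called higher and 7 lower (55.9% and 20.6%, beside 21.3% and 24.9% of all genes). Beside Aldh4a1 and Aldh18a1, 6 proline genes held 1 higher and 3 lower. Among the lower, Pycr1, which completes proline synthesis in mitochondria, fell 17.3-fold (4.97 ± 1.5 to 0.300 ± 0.173 CPM, adjusted p = 0.000545). Oat, which makes glutamate semialdehyde from ornithine, fell 1.30-fold (adjusted p = 0.0229), and Pycrl rose 1.47-fold (0.0182). The call of Pycrl was lost without replicate 1 or 2 labelled KspCre Tfam f/f (adjusted p up to 0.0706) and under scaling by total counts (0.370, log2 0.14). That of Oat was lost without replicate 1 labelled Tfam f/f, and without any single library of the KspCre label (up to 0.109) and with no filter on low counts (0.0635). Beside Aldh6a1, 8 of 11 genes of valine and propionyl-CoA breakdown were called higher and 1 lower, among them Acad8 (1.73-fold higher, adjusted p = 0.00551), Hibadh, which makes the substrate of Aldh6a1 (2.30-fold, 0.00807), Pcca (2.30-fold, 0.00845) and Hibch (1.89-fold, 0.00868).

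Beside Aldh1l1, 5 of 9 folate genes were called higher and 2 lower. The 2 lower were Mthfd2, a methylenetetrahydrofolate dehydrogenase (62.0, 56.2 and 61.8 against 2.84, 3.62 and 2.98 CPM, 19.0-fold, adjusted p = 5.77e-06) and Mthfd1l, a formyltetrahydrofolate synthetase (4.91-fold, 0.00147). Ftcd of histidine breakdown rose 2.77-fold (0.00924). Beside Aldh2, Aldh1b1 and Aldh3a2, 5 of 8 genes of ethanol, acetate and fatty aldehyde metabolism were called higher and 1 lower. Far1, which reduces fatty acyl-CoA, rose 2.76-fold (0.00279), Acss2, the cytosolic acetyl-CoA synthetase, 3.23-fold (0.00518) and Phyh of peroxisomal oxidation 2.00-fold (0.00975). Sgpl1, whose product is a substrate of Aldh3a2, fell 1.37-fold (0.00767), a call lost without replicate 3 labelled KspCre Tfam f/f (0.05003).

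Genes most like each Aldh1a gene were found by the root mean square difference of centred log2 CPM over the 6 libraries, among 11166 genes. For Aldh1a1 they were Gsta4 (0.126), Fn1 (0.214) and Phlda3 (0.246), and for Aldh1a2 Stambpl1 (0.117), Camk1d (0.132) and Plin4 (0.134). Aldh1a7 was followed most closely by Gsta2 (0.188) and Reep6 (0.205). No gene came near the profile of Aldh1a3, for which the smallest differences were those of Slc7a12 (0.970), Car3 (1.03) and Cdh16 (1.08). The lists of the 3 Aldh1a genes that were lower shared no gene. So few of the 11166 genes were listed for each that this does not show differing profiles. With no minimum level the genes nearest to Aldh1a7 were all others.

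RefSeq promoters on GRCm38.p6 were found for 8 of the 10 members, not for Aldh1a3 and Aldh2, and their 250 upstream bases were searched on both strands. CCAAT occurred in 7 of the 8, the exception being Aldh1b1, and in 37.5% of all genes searched. In the upstream bases of Aldh1a1 and Aldh1a7 printed above it lies in a stretch shared by both, within ccaatca. The nuclear receptor half-site AGGTCA occurred in Aldh1l1 and Aldh6a1 and in 15.8% of all genes. TGACNNNGC, the core of the antioxidant response element, occurred in Aldh1a2 and in 11.5% of genes. A retinoic acid receptor repeat (a direct repeat of AGGTCA with 5 bases between), a C/EBP-ATF element (TGATGNAAT) and a cyclic AMP element (TGACGTCA) occurred in 0 of the 8 members and in 0.0111%, 0.910% and 1.77% of genes. These matches are letters in a fixed window and describe no binding.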

How the data were processed

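Messenger RNA of whole kidney was measured in 6 libraries, 3 of each label. Sequencing was strand-specific poly A+, in pairs of 150 bases, from RNA of at least 100 ng and integrity above 7, per the labels' protocols. The authors deposited 1 raw, whole-number count for each gene and library. Submitters' processing notes name STAR 2.4.1d, HTSeq 0.11.0, FastQC and Trim Galore and the build mm10; no source used here states settings, annotation release or strand option. The 5 summary lines per library, 16.0% to 20.4% of each sum, were left out.

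Testing used edgeR 4.0.16 (R 4.3.3): filterByExpr (minimum count 10, minimum total 15), TMM, glmQLFit with robust estimation and glmQLFTest, Benjamini-Hochberg over 17308 genes, calls below 0.05. SE is the log2 fold change over the root of F. RPKM uses summed exon lengths of GENCODE M21, in which 54079 of 54146 identifiers were found. On data simulated with known changes for 17056 genes, 93.9% of 4-fold, 65.7% of 2-fold and 7.46% of 1.5-fold changes were recovered, with 10 false calls. Only 66 or 67 genes were changed at each fold, with the same dispersion in both groups. In the data 46.2% of tested genes were called, and the groups spread unequally, so these rates do not describe this contrast. Replicates differed by more than sampling noise. The chi-square per degree of freedom was 63.1 to 164 between libraries labelled Tfam f/f and 7.09 to 11.7 between the others. Whether libraries stem from different animals is not in the labels, and the p-values then reflect the spread of these libraries alone, which may be technical.

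Members, gene lists and the rule for naming genes were chosen with earlier results of these data known. Named were the members, Tfam, all measured genes of the rest of the family, the receptors, in each other list every called gene up to 5 or else the 4 with the smallest p, and the 3 genes nearest to each Aldh1a gene (mean log2 CPM of at least 2, no predicted genes). Some genes that this rule names are not reported here. The shared upstream stretch was chosen by its match score. Alternatives were DESeq2 1.42.0, limma 3.58.1 voom, DESeq2 size factors, total counts, no or a stricter filter, equal depth, a replicate block, each library left out, and longest transcripts as lengths. Calls in marker lists for which none are given above were as follows. In thick ascending limb 2 of 4 were called higher and 1 lower, in collecting duct 3 of 6 lower, and in podocyte 3 of 5 higher. Endothelium had 0 of 5 called, stroma 3 of 6 lower and lymphocyte 1 of 4 tested lower. In adipocyte 1 of 3 was called lower, and in hepatocyte 1 of 3 higher and 1 lower. Mesothelium and adrenal cortex had 0 called, with Cyp11b1 at 0 in every library.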

Additional observations from a re-analysis of the deposited data

How the results depend on the processing

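All members but Aldh1a3 kept their direction under every alternative run. Without replicate 3 labelled KspCre Tfam f/f the log2 fold change of Aldh1a3 was -1.11, and without replicate 2 labelled Tfam f/f it was 2.15. Calls of members moved for 3 genes: Aldh1l1 lost its call without replicate 2 labelled KspCre Tfam f/f, Aldh6a1 with no filter, without replicate 1 labelled Tfam f/f and without any library labelled KspCre Tfam f/f, and Aldh2 gained one with DESeq2 and without replicate 3 labelled Tfam f/f. Leaving out 1 library at a time gave 2276 to 4652 genes higher and 2822 to 4942 lower; 2 to 5 members higher; 4 to 7 genes of the rest of the family higher and 2 to 3 lower; 5 to 11 retinoid genes higher and 6 to 10 lower; and 12 to 22 neighbouring enzymes higher and 4 to 8 lower. The extremes among all genes came without replicate 2 labelled KspCre Tfam f/f and without replicate 2 labelled Tfam f/f.

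Scaling by total counts alone gave 1680 genes higher and 8519 lower, 4 genes of the rest of the family, 5 retinoid genes and 12 neighbouring enzymes higher, and 3, 12 and 11 lower. There Rara, Rxrb and Aldh3b1 were called lower, and the log2 fold change of Tgm2 was -0.030. With 1 library left out, Rarb ranged from -0.19 to 0.087 (above 0 without replicate 2 labelled Tfam f/f, at 0.079, or replicate 1 labelled KspCre Tfam f/f) and Rara from -0.17 to 0.018 (above 0 without replicate 3 labelled KspCre Tfam f/f); for these the cause was not tested. With the replicate number as a block, 3227 genes were higher and 3586 lower, and 4 members each way; Tgm2 (adjusted p = 0.0841) and Oat (0.0956) lost their calls. Deviations of same-numbered libraries correlated at -0.17, -0.07 and -0.07, so the numbers do not pair the libraries. With no minimum level, 0 of the 3 genes nearest to Aldh1a3 and 0 of those nearest to Aldh1a7 were shared with those reported. Aldh1a3 had 12 to 250 reads a library, which did not follow depth. Its 250 reads came from a library of 30348281 gene counts, and the deepest, with 48899266, held 51.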

Other observations

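The balance among members also differed within libraries. The ratio of Aldh1a2 to Aldh1a1 per kilobase was 0.430, 0.608 and 0.949 in replicates 1, 2 and 3 labelled Tfam f/f, against 0.988, 0.713 and 0.743 under the KspCre Tfam f/f label, so the groups overlapped although both genes were lower with the KspCre label. Aldh6a1 to Aldh2 was 0.570, 1.06 and 0.648 against 1.67, 1.44 and 1.53, without overlap, and only replicate 2 of the first group had more Aldh6a1 than Aldh2 per kilobase.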
